A study of Mus musculus with 2 samples.

Results

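The genes described here are 10 components of interferon reception and production, taken by symbol from the 32285 genes counted in each nucleus. They are the type I interferon receptor chains Ifnar1 and Ifnar2, the type II receptor chains Ifngr1 and Ifngr2, the receptor-bound kinases Jak1, Jak2 and Tyk2, the kinase Tbk1, and the transcription factors Irf3 and Irf8. All 10 were detected in both libraries. Single-nucleus RNA sequencing was carried out on hippocampi of male mice aged 9 months, and the nuclei of each genotype were pooled into 1 library. PS19 mice carry a human mutant tau transgene driven by the mouse prion promoter and have intact Zbp1. PZKO mice carry the same transgene and lack Zbp1, the sensor of left-handed nucleic acids. Both groups therefore express the transgene, and no mice without it were analysed here. With 1 library per genotype, a difference between PS19 and PZKO has no replicate check, so no p-value is given, and every interval below is a 95% interval for counting error only.

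After filtering, 9590 PS19 nuclei and 9307 PZKO nuclei remained, with a median of 5849 and 9022 unique molecular identifiers (UMIs) per nucleus. The libraries shared 47 cell barcodes. The nuclei formed 36 clusters, which were assigned to 14 cell classes by marker genes, and every listed marker was detected in every class. Levels were compared between the 11 classes that had at least 50 nuclei in each library, and genotypes within the 7 classes that had at least 200. Microglia numbered 947 and 754, excitatory neurons 2720 and 2938, and endothelial cells 312 and 301 in PS19 and PZKO. Levels are UMIs of a gene per 1000000 UMIs of the class (CPM). Zbp1 itself gave 92 UMIs in PS19 and 38 in PZKO, or 0.915 and 0.2496 CPM, and in microglia 47 and 20 UMIs. Its transcripts were thus fewer in PZKO but still counted, and which exons the allele lacks was not given in the sources used here.

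Interferons act through pairs of receptor chains. IFNAR1 and IFNAR2 bind type I interferons and signal through TYK2 and JAK1, whereas IFNGR1 and IFNGR2 bind interferon gamma and signal through JAK1 and JAK2. The activated kinases phosphorylate STAT factors, which induce the interferon-stimulated genes. TBK1 and IRF3 stand on the producing side, where nucleic acid sensors activate TBK1, TBK1 phosphorylates IRF3, and IRF3 induces interferon beta. IRF8 is a transcription factor needed for the microglial and macrophage identity, and its gene responds to interferon gamma.

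The core of the gamma-activated site, a DNA element of interferon gamma-induced genes, was searched as TTCNNNGAA in the 250 bases before each gene start in RefSeq promoters (GRCm38.p6). The core reads the same on both strands. It occurred in 7.02% of 32851 promoters and in 2 of the 11 promoter entries of the 10 genes, those of Irf8 and Ifnar2. The interferon-stimulated response element, searched on both strands as GAAANNGAA, occurred in 7.13% of promoters and in 0 of the 11 entries. The Irf8 and Ifnar2 windows are shown because they hold the searched letters, marked in capitals. The Irf8 window is chr8:120736108-120736357 on the plus strand and the Ifnar2 window is chr16:91372533-91372782 on the plus strand.
Irf8: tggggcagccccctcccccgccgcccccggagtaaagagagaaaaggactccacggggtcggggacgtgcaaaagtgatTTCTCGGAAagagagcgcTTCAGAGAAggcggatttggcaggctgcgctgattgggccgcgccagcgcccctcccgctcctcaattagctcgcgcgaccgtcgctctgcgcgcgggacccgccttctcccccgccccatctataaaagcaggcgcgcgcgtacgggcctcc
Ifnar2: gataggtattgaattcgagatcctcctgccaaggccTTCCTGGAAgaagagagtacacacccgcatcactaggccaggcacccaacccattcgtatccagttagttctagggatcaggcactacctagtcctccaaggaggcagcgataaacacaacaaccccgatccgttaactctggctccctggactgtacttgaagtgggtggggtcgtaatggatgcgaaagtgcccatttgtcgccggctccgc
The Irf8 matches were TTCTCGGAA and TTCAGAGAA, which start 171 and 153 bases before the gene start. The Ifnar2 match was TTCCTGGAA, which starts 214 bases before it. These are matches of letters, and binding was not measured.

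The 10 genes lie on 7 chromosomes in mm10. Ifnar1, Ifnar2 and Ifngr2 are neighbours on the plus strand of chr16, at chr16:91485238-91507441, chr16:91372783-91405589 and chr16:91547072-91565623. Ifngr1 lies at chr10:19591949-19610229 and Tbk1 at chr10:121546455-121586787. Jak1 lies at chr4:101152367-101265282, Jak2 at chr19:29251828-29313080 and Tyk2 at chr9:21104068-21131243. Irf3 lies at chr7:44997648-45002848 and Irf8 at chr8:120736358-120756694. Irf3 overlaps Bcl2l12, Jak1 overlaps Raver2 and Tyk2 overlaps 1700084C06Rik on the opposite strand, so reads of these pairs are told apart only where the counting used strand. On the same strand Ifnar2 overlaps Gm21970, Jak1 overlaps Gm12785 and Irf8 overlaps Gm20388, which strand cannot resolve, so the counts of these 3 members are uncertain to that extent.

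Of the classes with at least 50 nuclei, endothelial cells and microglia had the highest levels of the type I receptor chains. Ifnar1, the signalling chain that holds TYK2, reached 269 CPM (238.5 to 301) in PS19 endothelial cells and 251 (224.5 to 280.5) in PZKO endothelial cells. Microglia followed at 105 and 98.8 CPM, and vascular leptomeningeal cells (VLMC) at 65.6 and 57.6. Oligodendrocytes held 28.4 and 26.9 CPM, excitatory neurons 20.6 and 20.9, and inhibitory neurons 20.7 and 20.03. Macrophages, a class with few nuclei, held 221 and 70.8 CPM on 12 and 3 UMIs, and T cells 82.3 and 69.1 on 5 and 7 UMIs. The endothelial level was 2.57 times the microglial level in PS19 and 2.54 times in PZKO. In the order of classes, the interval of the ratio of a class to the next excluded no difference in both libraries for 2 of 10 steps.

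Ifnar2, the chain that holds JAK1, reached 335 CPM (302 to 372) in PS19 endothelial cells and 301 (272 to 333) in PZKO endothelial cells. In microglia it was 253 CPM in both libraries (236 to 270.5 and 236 to 271). VLMC held 127 and 111 CPM, choroid plexus cells 74.1 and 68.7, and oligodendrocyte precursors (OPC) 69.3 and 67.4. Both types of neurons and oligodendrocytes were the lowest classes, at 17.1 to 24.1 CPM. Macrophages held 313 and 260 CPM of Ifnar2 on 17 and 11 UMIs, and T cells 313 and 158 on 19 and 16 UMIs. For Ifnar2, the interval of the ratio of a class to the next excluded no difference in both libraries for 4 of 10 steps.

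The endothelial levels of both chains varied with the mitochondrial share of the nuclei. Mitochondrial UMIs made up 1.44% and 1.45% of endothelial UMIs in PS19 and PZKO, the highest of the 7 larger classes. In endothelial nuclei at or under 1% mitochondrial UMIs, Ifnar1 was 209 CPM (169 to 256.5) in PS19 and 205 (167 to 248.5) in PZKO, and above 1% it was 310.2 and 282. Ifnar2 was 252 and 247 CPM in the former and 394 and 336 in the latter. In microglia the matching Ifnar2 levels were 251 and 254 CPM at or under 1%, and 259 and 249.2 above it. When all nuclei were filtered more strictly, including a limit of 1% mitochondrial UMIs, and clustered again, the endothelial class held 182 and 184 nuclei. The main endothelial class had 158 and 150 nuclei at or under 1%, so the stricter class also took in other nuclei. In it Ifnar1 was 134 and 132 CPM, 1.28 and 1.37 times the microglial level. Endothelial Ifnar2 was then 185 and 149.9 CPM, below the microglial 251 and 252. Without the removal of doublets, Ifnar2 in PZKO was likewise highest in microglia. The split of nuclei at 1% was chosen after the values were seen. The part of the mitochondrial share, or of the changed class, in the endothelial level was not tested.

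**Figure D1:**
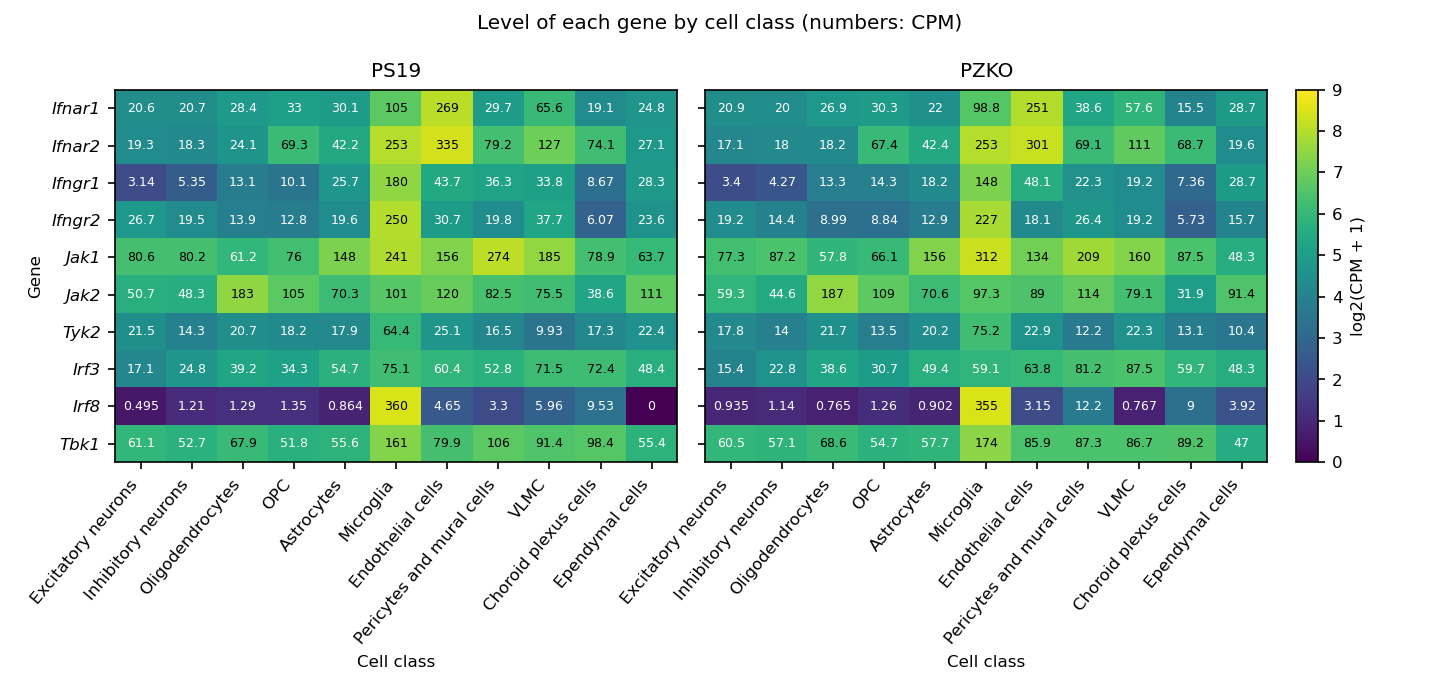
Heat maps of the 10 genes (rows) in the 11 cell classes with at least 50 nuclei in each library (columns), PS19 on the left and PZKO on the right, with the level in CPM printed in each cell and the color showing log2 of CPM plus 1. Ifnar1 and Ifnar2 peaked in endothelial cells, and Ifngr1, Ifngr2, Tyk2 and Irf8 peaked in microglia in both libraries.

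The 2 endothelial clusters both carried the type I chains. In the larger cluster Ifnar1 was 233 CPM in PS19 and 201.5 in PZKO, and in the smaller it was 320.1 and 316. Ifnar2 was 264 and 231 CPM in the larger cluster and 438 and 391.5 in the smaller. The larger cluster made up 81.1% and 84.4% of endothelial nuclei, and its PZKO Ifnar2 level was below the 253 CPM of microglia. As a mean over nuclei, endothelial Ifnar2 was 1.20 times the microglial level in PS19 and 1.03 times in PZKO. Inhibitory neurons were less even, since Ifnar2 was 32.6 and 28.6 CPM in 1 inhibitory cluster and 10.8 and 12.7 in another.

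The type II receptor chains were concentrated in microglia. Ifngr1, the ligand-binding chain, was 180.0 CPM (166 to 195) in PS19 microglia and 148 (135 to 161) in PZKO microglia. Endothelial cells were next at 43.7 and 48.1 CPM, whereas excitatory neurons held 3.14 (2.71 to 3.63) and 3.40 (3.04 to 3.79) and inhibitory neurons 5.35 and 4.27. From the highest to the lowest class the Ifngr1 level spanned 57.3-fold in PS19 and 43.5-fold in PZKO. Among the classes with few nuclei, T cells held 346 and 296 CPM of Ifngr1 on 21 and 30 UMIs. Macrophages held 203 and 142 CPM on 11 and 6 UMIs.

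Ifngr2, the second chain of that receptor, was 249.6 CPM (233 to 267) in PS19 microglia and 227 (211 to 244) in PZKO microglia. Of the classes with at least 50 nuclei, VLMC were next in PS19, at 37.7 CPM on 19 UMIs. In PZKO pericytes and mural cells were next, at 26.4 CPM on 13 UMIs. The microglial level was 6.61 and 8.605 times these. Macrophages, a class with few nuclei, lay above them, at 73.7 and 118 CPM on 4 and 5 UMIs. T cells held 32.9 and 19.7 CPM on 2 and 2 UMIs. Endothelial cells held 30.7 and 18.1 CPM, astrocytes 19.6 and 12.9, and oligodendrocytes 13.9 and 8.99. Choroid plexus cells were lowest at 6.07 and 5.73 CPM.

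Jak1, the kinase that serves both receptors, was expressed in every class, and its level spanned 4.48-fold over the classes in PS19 and 6.47-fold in PZKO. Pericytes and mural cells held 274 CPM (218 to 339.5) in PS19 on 83 UMIs and 209 (171 to 254) in PZKO on 103 UMIs, and microglia held 241 (224 to 258) and 312 (294 to 332). The highest class was thus pericytes and mural cells in PS19, where the 2 intervals overlapped, and microglia in PZKO, where they did not. In PS19 it was microglia with stricter filtering, with a coarser clustering and with the compared genes left in the clustering. VLMC held 185 and 160.4 CPM, excitatory neurons 80.6 and 77.3, and oligodendrocytes 61.2 and 57.8. T cells held 510 and 572 CPM of Jak1 on 31 and 58 UMIs.

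Of the classes with at least 50 nuclei, oligodendrocytes were highest for Jak2, the kinase of IFNGR2, and for no other member. Jak2 was there at 183 CPM (174 to 192) in PS19 and 187 (178 to 195) in PZKO. T cells held 214 and 148 CPM of Jak2 on 13 and 15 UMIs, and macrophages 55.3 and 142 on 3 and 6 UMIs. OPC held 105 and 109 CPM, endothelial cells 119.9 and 89.0, and microglia 101 and 97.3. Excitatory neurons held 50.7 and 59.3 CPM. Oligodendrocytes thus carried the kinase at a high level beside Ifngr2 at 13.9 and 8.99 CPM.

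Tyk2, the kinase of IFNAR1, was 64.4 CPM in PS19 microglia and 75.2 in PZKO microglia, and between 9.93 and 25.1 CPM in the other 10 classes. Its microglial level was 2.57 and 3.29 times the endothelial level, the next in both libraries. Tbk1, which activates IRF3, was 161 and 174 CPM in microglia and 47.0 to 105.6 CPM in the other classes with at least 50 nuclei. Macrophages held 184 and 47.2 CPM of Tbk1 on 10 and 2 UMIs, and T cells 82.3 and 128 on 5 and 13 UMIs. Irf3 was 75.1 and 59.1 CPM in microglia, 71.5 and 87.5 in VLMC, and 72.4 and 59.7 in choroid plexus cells. Of the classes with at least 50 nuclei, excitatory neurons had the lowest Irf3 level at 17.1 and 15.4 CPM. The highest class among them was microglia in PS19, at 1.04 times the next, and VLMC in PZKO, at 1.08 times. In PS19 it was VLMC as a mean over nuclei or with the ambient profile subtracted, and in PZKO it was pericytes and mural cells with stricter filtering.

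Irf8 was 360.0 CPM (340 to 381) in PS19 microglia and 355 (335 to 375) in PZKO microglia. Macrophages held 166 and 94.4 CPM on 9 and 4 UMIs, and no other class with at least 50 nuclei exceeded 9.53 CPM in PS19 or 12.2 in PZKO. Microglia were 9.87% and 8.10% of nuclei and 3.24% and 2.20% of UMIs. They held 91.6% and 87.0% of all Irf8 UMIs, 43.0% and 33.6% of Ifngr1 UMIs and 26.3% and 23.0% of Ifngr2 UMIs. Excitatory neurons, with 58.2% and 61.8% of all UMIs, held 42.3% and 50.2% of Ifnar1 UMIs and 50.5% and 54.8% of Ifngr2 UMIs. A low level in a class with much RNA thus accounted for a large part of the total of some receptor chains.

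A gene was called class-specific where the same class was highest in both libraries and at least 2 times the next. This held for 5 of the 10 genes, against 20.2% of the 16623 genes compared. Ifngr1, Ifngr2, Tyk2 and Irf8 were specific to microglia, against 4.37% of genes, and Ifnar1 was specific to endothelial cells. The classes under 50 nuclei, among them macrophages and T cells, did not enter. T cells held more Ifngr1 than microglia, and macrophages more in PS19 but not in PZKO, as given above. Ifnar1 in macrophages was 221 and 70.8 CPM on 12 and 3 UMIs, against 269 and 251 in endothelial cells. Tyk2 was 111 and 70.8 CPM in macrophages on 6 and 3 UMIs. In T cells it was 98.7 and 59.2 CPM on 6 and 6 UMIs, against 64.4 and 75.2 in microglia. Ifngr2 and Irf8 were lower in macrophages and T cells than in microglia. Macrophages held Ifngr2 at 73.7 and 118 CPM on 4 and 5 UMIs, against 249.6 and 227 in microglia. The Ifnar1 call was lost with stricter filtering, at 1.28 and 1.37 times the next class, and with doublets kept, at 1.98 times in PZKO. The highest class was the same in both libraries for 8 of the 10 genes, all but Jak1 and Irf3, against 70.9% of genes.

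The share of nuclei with UMIs of both chains was counted after nuclei were thinned to 2000 UMIs, and nuclei with fewer were left out. This left out 108 of 312 endothelial nuclei and 125 of 947 microglia in PS19, and 97 of 301 and 61 of 754 in PZKO. For the type I receptor the share in endothelial cells was 16.7% (11.8 to 22.5) in PS19, or 34 of 204 nuclei, and 18.1% (13.1 to 24.1) in PZKO, or 37 of 204. In microglia it was 6.69% (5.08 to 8.62) and 5.92% (4.28 to 7.94), and in excitatory neurons 0.0368% and 0.0681%. Without thinning, over all nuclei of the class, the shares were 31.4% and 27.9% in endothelial cells, 17.9% and 22.0% in microglia, and 10.3% and 15.5% in excitatory neurons. The unthinned shares of neurons were counted in nuclei with a median of 18864 and 28487 UMIs, against 3313 and 4180 in microglia and 2555 and 2643 in endothelial cells.

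For the type II receptor the thinned share in microglia was 12.04% (9.90 to 14.5) in PS19 and 9.96% (7.83 to 12.4) in PZKO, and 23.0% and 25.9% without thinning. In the other classes with at least 50 nuclei it was highest in PS19 VLMC, at 2.02% or 2 of 99 nuclei. Endothelial cells had 0 of 204 such nuclei in each library after thinning, which allows a share of up to 1.79%, and 1.60% and 2.33% without it. Excitatory neurons had 0.0368% and 0.0341% after thinning, and 2.46% and 4.29% without it. As a class that should lack the gene, excitatory neurons had Irf8 in 0.0735% and 0.102% of thinned nuclei, against 48.2% and 47.5% of microglia.

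**Figure D2:**
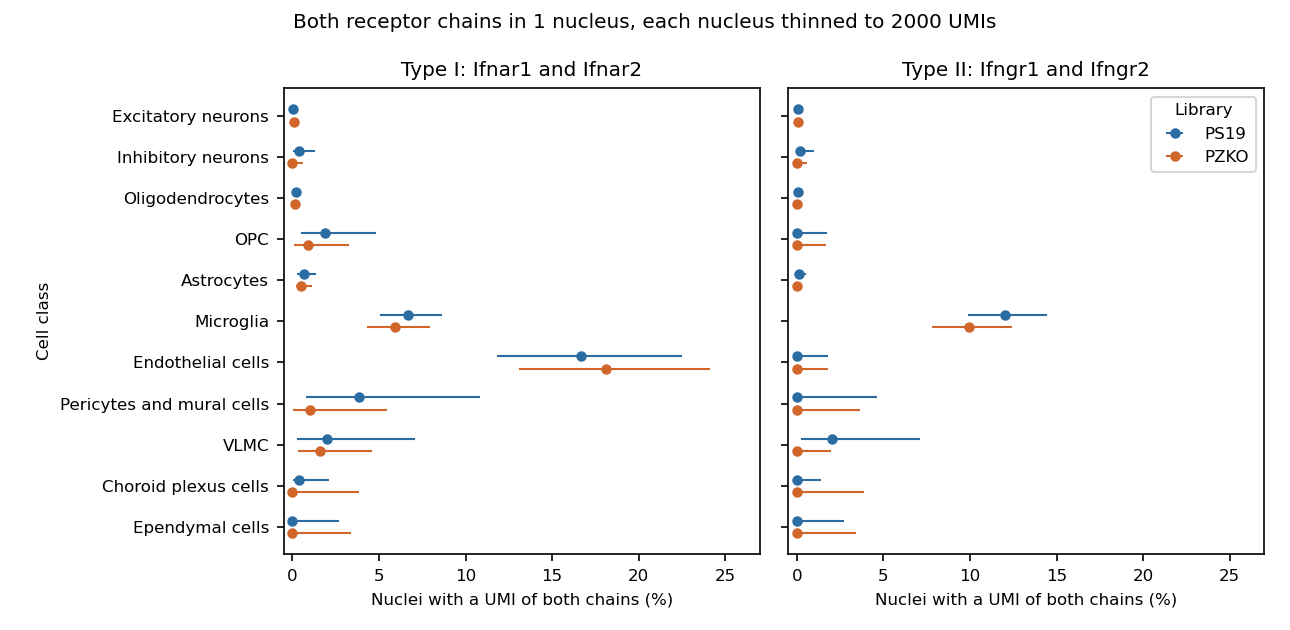
Percent of nuclei in which both chains of a receptor were detected after thinning to 2000 UMIs, without the nuclei that had fewer, by cell class and library, with exact 95% binomial intervals. The type I pair was most often found together in endothelial cells, at 16.7% and 18.1%, and the type II pair in microglia, at 12.04% and 9.96%.

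To compare whole signalling sets between classes with at least 50 nuclei, each component was divided by its level in all nuclei of the library. For type I reception, by Ifnar1, Ifnar2, Jak1 and Tyk2, all 4 components were at or above that level in both libraries in microglia and endothelial cells. Their lowest component was Jak1 in microglia, at 2.63 and 3.50 times the level in all nuclei, and Tyk2 in endothelial cells, at 1.17 and 1.21 times. The endothelial Tyk2 level rested on 27 and 29 UMIs, and its intervals, 16.5 to 36.5 and 15.3 to 32.8 CPM, included the 21.5 and 19.0 CPM of all nuclei. With stricter filtering it was 25.5 CPM in PS19 on 20 UMIs and 14.2 in PZKO on 15 UMIs, the latter below the 17.9 CPM of excitatory neurons, so for endothelial cells the fourth component is uncertain. VLMC met the criterion in PZKO only. Macrophages and T cells, with under 50 nuclei, did not enter. They also held all 4 components above that level in both libraries, on 3 to 58 UMIs a gene. Neurons had 0 of 4 components at that level. In excitatory neurons Ifnar2 was at 0.538 and 0.578 times, Ifnar1 at 0.727 and 0.812, Jak1 at 0.883 and 0.865, and Tyk2 at 0.998 and 0.939. Ifnar2 was at 0.509 and 0.610 times in inhibitory neurons. Excitatory neurons supplied 58.2% and 61.8% of the UMIs behind the level in all nuclei, so their own level weighs heavily in it.

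For type II reception, by Ifngr1, Ifngr2, Jak1 and Jak2, the same classes with at least 50 nuclei were compared. Of these, only microglia had all 4 components at or above the level in all nuclei in both libraries, with Jak2 lowest at 1.49 and 1.41 times. Endothelial cells fell short by Ifngr2, at 0.997 and 0.835 times on 33 and 23 UMIs. Excitatory neurons had Ifngr1 at 0.232 and 0.352 times and inhibitory neurons at 0.395 and 0.442 times. Ifngr2 in excitatory neurons was at 0.867 and 0.886 times. Oligodendrocytes combined Jak2 at 2.69 and 2.71 times with Ifngr2 at 0.452 and 0.414 times. VLMC in PS19 and pericytes and mural cells in PZKO met the criterion in 1 library each. In the other library both fell short by Ifngr2. VLMC were at 0.884 times on 25 UMIs, and pericytes and mural cells at 0.644 times on 6 UMIs. On so few UMIs, whether endothelial cells, VLMC, and pericytes and mural cells fall below the level in all nuclei is uncertain. Macrophages and T cells did not enter. Macrophages were above that level for all 4 components in PZKO. In PS19 they fell short by Jak2 only, at 55.3 CPM on 3 UMIs against 68.1. T cells were above it for all 4 in PS19. In PZKO they fell short by Ifngr2 only, at 19.7 CPM on 2 UMIs against 21.7.

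**Figure D3:**
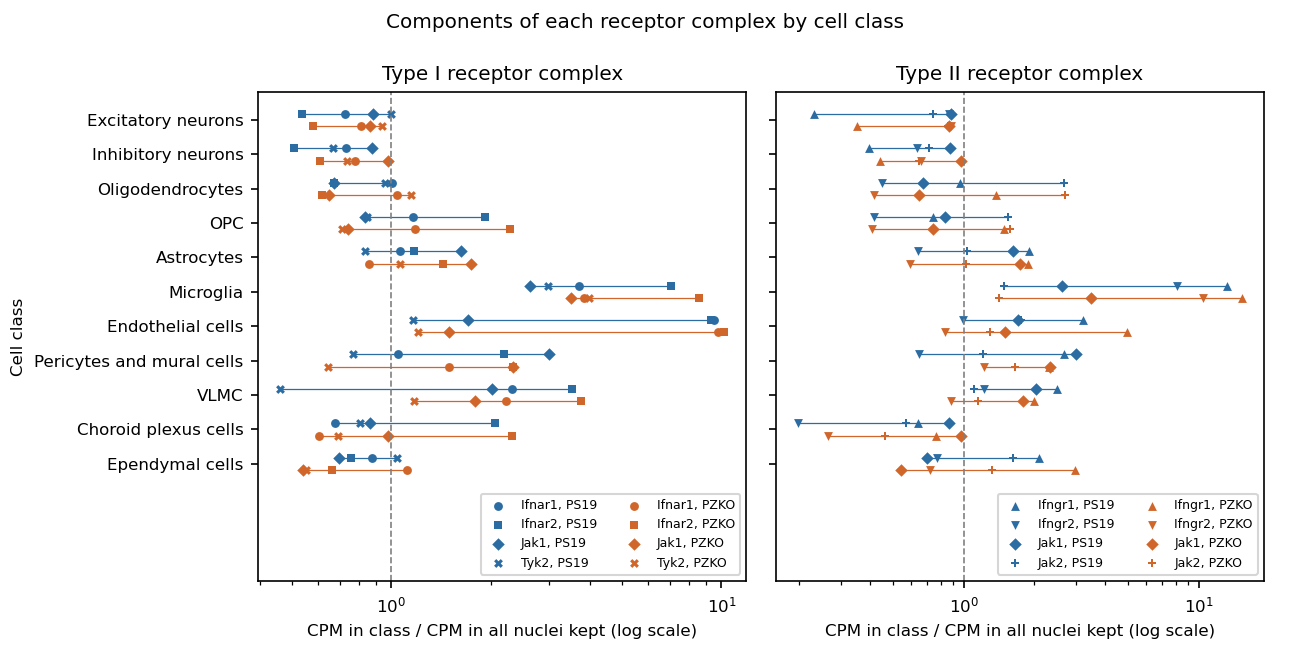
Level of each receptor chain and kinase in a class divided by its level in all nuclei of the same library, on a log axis, for PS19 in blue and PZKO in orange. A line joins the lowest and the highest component of a class, and the dashed line marks a ratio of 1. Microglia were above 1 for all components of both receptors, and endothelial cells for Ifnar1, Ifnar2 and Jak1, with Tyk2 near 1 on 27 and 29 UMIs.

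Irf8 outside microglia was compared with other microglial genes in the same nuclei. In excitatory neurons Irf8 reached 0.138% of its microglial level in PS19 and 0.264% in PZKO. The reference genes Csf1r, Cx3cr1, Inpp5d and P2ry12 ranged there from 0.0771% to 1.85% and from 0.0499% to 1.09% of theirs. In astrocytes the Irf8 values were 0.240% and 0.254%, with reference genes from 0.0894% to 3.44% and from 0.0645% to 3.51%. Choroid plexus cells gave 2.65% and 2.54% on 22 and 11 UMIs, below Cx3cr1 at 7.25% and 7.14% but above Csf1r at 0.472% and 0.430%, P2ry12 at 1.05% and 0.573%, and Inpp5d at 0.0242% and 0%. Pericytes and mural cells in PZKO were the case in which Irf8 lay above all 4 reference genes, at 3.44% (1.26 to 7.48) on 6 UMIs, where the reference genes reached at most 1.17%. In PS19 pericytes and mural cells it was 0.917% on 1 UMI. In every other class with at least 50 nuclei, Irf8 lay below the highest of the 4 reference genes in both libraries.

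**Figure D4:**
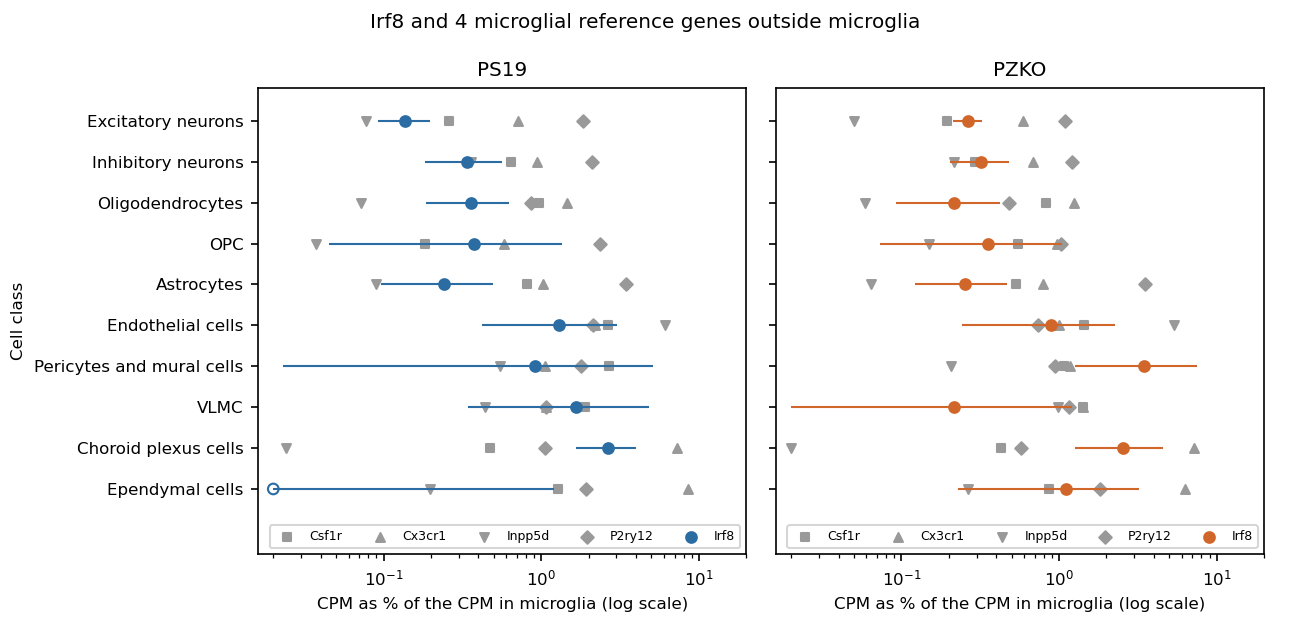
Irf8 level in each class as a percent of its microglial level, on a log axis, with its 95% counting interval, beside the same percent for the microglial reference genes, in PS19 and PZKO. An open circle marks a class with 0 Irf8 UMIs, and values of 0 or below the axis are drawn at the left edge. In PZKO pericytes and mural cells Irf8 stood at 3.44%, above the reference genes.

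The genotype comparison asked whether the components differed between PS19 and PZKO within a class. A ratio was called where it reached 0.5 on the log2 scale in either direction, with at least 100 UMIs over both libraries. Of 70 pairs of gene and class, 60 had that number of UMIs, and 2 were called lower in PZKO, 1 higher, and 57 neither. Over all genes compared, 4.21% to 9.04% were called lower and 2.07% to 5.16% higher in the 7 classes, so that most genes of any kind were not called either. With the ambient profile subtracted 6 pairs were called lower. The median log2 ratio of the members lay between -0.10 and 0.01 in the 7 classes, and that of all genes compared between -0.08 and 0.01. The interval of the ratio included 0 for 42 of the 60 pairs, and lay below 0 for 14 and above 0 for 4. The share of all genes with such intervals is not given here, so these counts are not read as particular to the members.

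Ifngr2 accounted for both lower calls. In oligodendrocytes it was 13.9 CPM in PS19 and 8.99 in PZKO, a log2 ratio of -0.63 (-1.03 to -0.23). This was the only member called lower there, where 7.64% of all genes were called lower and 2.1% higher. The 3 oligodendrocyte clusters made up different shares of the class in the libraries, one of them 46.1% in PS19 and 28.0% in PZKO and another 18.8% and 40.8%. Ifngr2 was 13.8 and 11.05 CPM in the former, a ratio of -0.32 (-1.08 to 0.41), 14.8 and 8.21 in the latter, at -0.85 (-1.59 to -0.11), and 13.5 and 8.74 in the third, at -0.63 (-1.31 to 0.04). In astrocytes it was 19.6 and 12.9 CPM, a ratio of -0.61 (-0.94 to -0.27), where 9.04% of genes were called lower and 2.07% higher. The astrocyte ratio was -0.48 with edgeR's TMM factors and the oligodendrocyte ratio -0.499 as a mean over nuclei, both short of the fold for a call. The Ifngr2 ratio was below 0 in all 7 classes, and 4 of the 5 intervals with enough UMIs excluded 0. For this too, no matching share of all genes is given here.

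In excitatory neurons Ifngr2 was 26.7 CPM (25.4 to 28.0) in PS19 and 19.2 (18.4 to 20.1) in PZKO, a log2 ratio of -0.47 (-0.57 to -0.37). It was below 0 in each of the 9 excitatory clusters, from -0.67 to -0.10. In microglia the ratio was -0.14 (-0.28 to 0.01). The 2 astrocyte clusters differed, since Ifngr2 was 11.3 and 10.99 CPM in 1 of them and 25.3 and 14.8 in the other. The former was 46.6% of astrocytes in PS19 and 56.6% in PZKO, and the latter 53.4% and 43.4%. The part of this mix in the astrocyte ratio was not tested.

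Other values were lower in PZKO along with Ifngr2, though not all. Microglial genes in excitatory neurons were lower, with Csf1r at 1.90 and 1.48 CPM and Cx3cr1 at 6.61 and 5.16. Inpp5d was there at 1.38 and 0.977 CPM and P2ry12 at 13.7 and 9.33. In oligodendrocytes the log2 ratios were -0.17 for Csf1r, -0.34 for Cx3cr1, -0.17 for Inpp5d and -0.63 for P2ry12. In astrocytes they were -0.55 for Csf1r, -0.49 for Cx3cr1 and -0.35 for Inpp5d. P2ry12 went the other way in astrocytes, at 0.23 (-0.02 to 0.49) on 207 and 333 UMIs. Most of these oligodendrocyte and astrocyte intervals included no difference. Genes for ribosomal proteins had medians between -0.56 and -0.45 in 6 of the 7 classes and -0.01 in endothelial cells, and mitochondrial genes between -1.21 and -0.58 in the same 6. Genes of 10 to 30 kb, the length class of Ifngr2, had a median of -0.13 in astrocytes, and it was -0.10 for oligodendrocytes and -0.11 for excitatory neurons. After an estimated ambient profile was subtracted, the Ifngr2 ratio of astrocytes was -0.74, that of oligodendrocytes -0.96 and that of excitatory neurons -0.47. The part of RNA quality in the Ifngr2 difference was not tested.

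Irf8 in excitatory neurons was the only pair called higher, on 29 UMIs in PS19 and 88 in PZKO, a log2 ratio of 0.92 (0.30 to 1.57). Among all genes in excitatory neurons, 3.62% were called higher and 7.79% lower. In both libraries the level was below 1 in 100 of the microglial level, as given above, and below that of P2ry12 and Cx3cr1 on the same scale. On that scale it was above Inpp5d in both libraries, at 0.0771% and 0.0499%. It was above Csf1r in PZKO, at 0.194%, but not in PS19, at 0.258%. The 4 reference genes moved the other way there, with ratios between -0.56 and -0.36. With the 9 excitatory clusters weighted equally the Irf8 ratio was 0.56. With the ambient profile subtracted no ratio could be given, since no Irf8 count was left in either library. The profile was the sum of all deposited nuclei, and over the nuclei kept 91.6% and 87.0% of Irf8 UMIs were microglial. A level this low is removed by it whatever the source, and the source of these UMIs was not tested. The UMIs were unevenly spread over the 9 excitatory clusters. The highest cluster was at 2.12 CPM in PS19, and another was highest in PZKO, at 2.64. The ratio was below 0 in 3 of the 9 clusters, and ranged from -1.89 to 2.235 on few UMIs. In a cortex- or subiculum-like cluster the Irf8 UMIs numbered 2 in PS19 and 23 in PZKO, or 0.231 and 1.09 CPM. Dentate granule-like nuclei, 1009 in PS19 and 514 in PZKO, gave 10 and 6 UMIs.

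In microglia, where 6.25% of genes were called lower and 3.28% higher, 0 of the 10 members were called. The ratio with the largest size was that of Jak1, 241 and 312 CPM, at 0.38 (0.24 to 0.51). Irf3 at -0.35 (-0.62 to -0.07) and Ifngr1 at -0.28 (-0.46 to -0.11) had intervals below 0, and both stayed under the fold for a call. In microglia genes under 10 kb, the length class of Irf3, had a median of -0.25, those of 10 to 30 kb, that of Ifngr1, -0.08, and those over 100 kb, that of Jak1, 0.13. The part of gene length in these ratios was not tested. Irf8, at -0.02, and Ifnar2, at 0.00, were level between the libraries, and the sign of the Irf8 ratio turned with either other scaling and with the ambient profile subtracted. Over all nuclei, by contrast, Irf8 gave -0.51 and Ifngr1 -0.49, in libraries where microglia were 3.24% and 2.20% of UMIs.

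In inhibitory neurons, OPC and endothelial cells no member was called. In inhibitory neurons 7.79% of genes were called lower and 2.7% higher, in OPC 7.98% and 5.16%, and in endothelial cells 4.21% and 4.46%. Of the endothelial ratios, Jak2 gave -0.43 (-0.81 to -0.05). Over the alternative settings this Jak2 ratio ran from -0.80 to -0.07, the latter with stricter filtering of nuclei. In astrocytes Ifnar1 gave -0.45 and Ifngr1 -0.49, in oligodendrocytes Ifnar2 gave -0.41, and in excitatory neurons Jak2 gave 0.23, Tyk2 -0.27 and Ifnar2 -0.18. Dentate granule-like nuclei were 37.1% of excitatory neurons in PS19 and 17.5% in PZKO, and with equal weights of the clusters these 3 ratios were 0.098, -0.094 and -0.096.

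**Figure D5:**
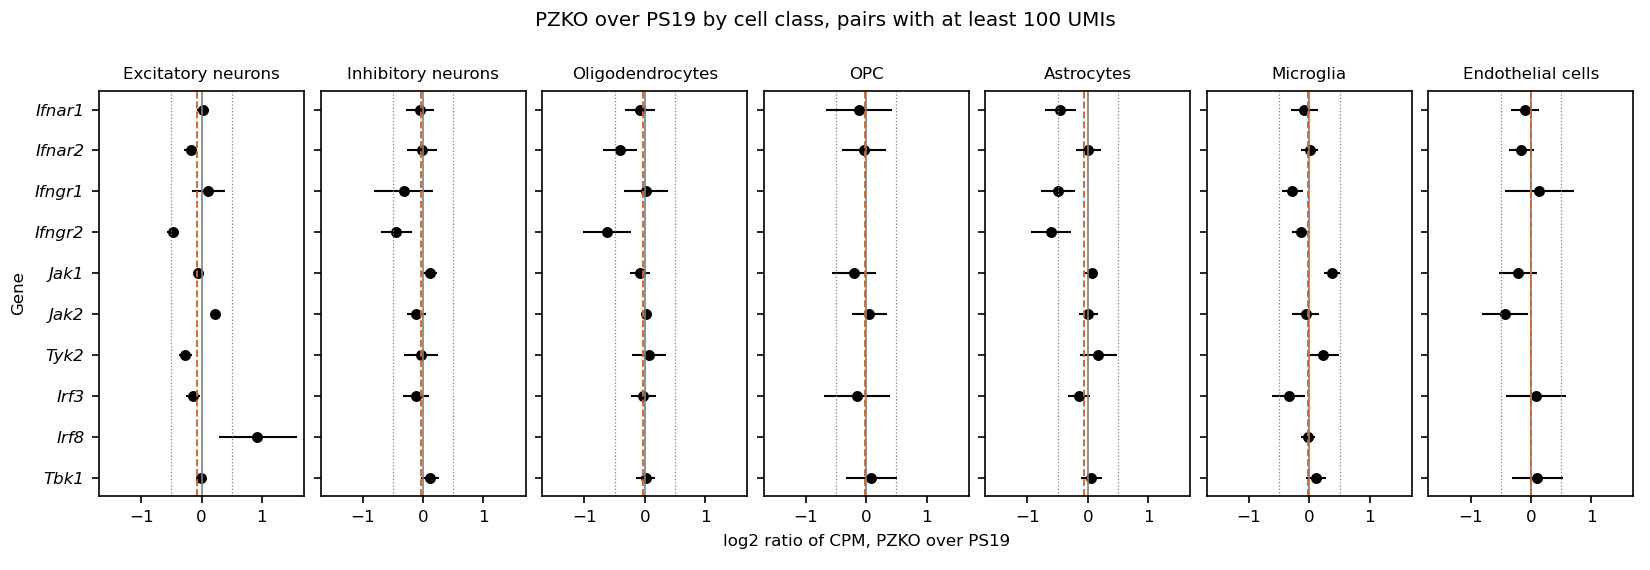
Log2 ratio of PZKO to PS19 for each member in each of the 7 larger classes, as points with 95% counting intervals, for the 60 pairs with at least 100 UMIs. Dotted lines mark the fold used for a call, the solid line 0 and the orange dashed line the median of all genes compared. Ifngr2 lies beyond the lower dotted line in oligodendrocytes and astrocytes, and Irf8 beyond the upper dotted line in excitatory neurons.

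Of 70 further genes of the pathway, 67 were in the matrices. Under the same rule 1 was lower and 6 higher of 33 compared in microglia, 3 lower and 0 higher of 34 in astrocytes, and 1 lower and 3 higher of 37 in excitatory neurons. The shares of all genes were 6.25% lower and 3.28% higher in microglia, 9.04% and 2.07% in astrocytes, and 7.79% and 3.62% in excitatory neurons. Oligodendrocytes had 1 lower of 23 and OPC 1 of 15, with 0 higher in each, where 7.64% and 7.98% of all genes were lower. Inhibitory neurons had 0 of 23 and endothelial cells 0 of 21 in either direction, where 7.79% and 4.21% of all genes were lower and 2.7% and 4.46% higher. By role, the genes higher in microglia were 2 of 5 other interferon regulatory factors, 3 of 12 sensors and adaptors, and 1 of 8 inhibitors, with 0 of 7 STAT and ISGF3 factors. They included Irf7, an interferon-induced factor that amplifies interferon production, and Usp18, which blocks signalling at IFNAR2. The sensors were Ifih1 and Ddx58, the genes of the RNA sensors MDA5 and RIG-I, at 74.2 and 121.8 CPM and at 54.3 and 82.4 CPM, and the adaptor Tbkbp1 on 38 and 63 UMIs.

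In microglia 49 and 100 UMIs of Irf7 were counted, which is 15.0 CPM in PS19 and 29.9 in PZKO and gives 0.99 (0.48 to 1.51) on the log2 scale. Usp18 was 52.4 and 78.5 CPM, a ratio of 0.58 (0.30 to 0.87). Irf9, the DNA-binding subunit of the ISGF3 complex, was 47.5 CPM in both libraries. Ikbke, the kinase most like TBK1, was 37.4 and 44.2 CPM. Irf1 was also called higher, at 33.7 and 48.1 CPM and 0.51. Mavs, the adaptor of the RNA sensors, was the gene called lower, at 35.9 and 23.3 CPM and -0.62.

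In the other classes the pathway genes at the ends of the range of ratios were as follows. In excitatory neurons Irf1 was 3.38 and 2.26 CPM at -0.58 and Stat5b 14.3 and 22.0 at 0.62. Irf1 was thus lower in PZKO neurons and higher in PZKO microglia, and the difference between the classes was not tested. In oligodendrocytes Ticam1, the adaptor of TLR3, was 16.2 and 9.85 CPM at -0.71, and Stat2 gave 0.28. In astrocytes Irf2bpl was 19.5 and 12.1 CPM at -0.69 and Irf2 gave 0.16. In endothelial cells Ptpn11 gave -0.22. In inhibitory neurons Azi2, which binds TBK1, was 56.1 and 44.0 CPM at -0.35 and Tbkbp1 13.5 and 19.04 at 0.49. In OPC Azi2 gave -0.48 and Pias2 0.29, and Stat2 was the gene called lower, at 51.8 and 36.6 CPM and -0.50.

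The ligands were barely counted. The 21 interferon genes gave 8 UMIs in PS19 and 18 in PZKO, and 15 of them gave 0 in both. Ifng gave 0 and 5 UMIs, Ifnb1 0 and 1, and Ifnk 6 and 7. A count of 0 allows up to 0.0298 CPM in PS19. The type III receptor chain Ifnlr1 gave 53 and 70 UMIs over all nuclei, whereas Il10rb, its partner chain, was 133 and 161.5 CPM in endothelial cells, 141 in PS19 microglia and 1.43 and 1.36 CPM in excitatory neurons.

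The genes most like each member in their levels over the 11 classes were found by Pearson's r of the log2 level, averaged over the libraries, among 16622 genes. Ifnar1 was most like Tnfsf10 at 0.983, Srgn at 0.972 and Nampt at 0.961, Ifnar2 most like Smchd1 at 0.975 and Il10rb at 0.962, Ifngr1 most like Odr4 at 0.965, and Ifngr2 most like Cyth4 at 0.952. Jak1 was most like Il13ra1 at 0.967, Jak2 most like Fbxo32 at 0.923, Tyk2 most like BC035044 at 0.969, and Irf8 most like Tlr2 at 0.971. Irf3 was most like Parp4 at 0.982 and Tbk1 most like Zfp715 at 0.958. Between the members, the pair Ifnar1 and Ifnar2 gave 0.847, Ifngr1 and Ifngr2 0.735, Irf8 and Tbk1 0.910, and Jak1 and Jak2 0.0249. The 11 points of each value share their libraries and the depth of each class.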

How the data were processed

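Nuclei were counted as UMIs per gene, and the authors deposited raw count matrices, made with Cell Ranger against mm10. The matrix header names version 8.0.1 and the submitters' processing notes 7.0.1, and the annotation was not given in the sources used here. Totals were 116488513 UMIs in PS19 and 171167884 in PZKO over 11469 and 10920 nuclei. Nuclei were kept with 600 or more UMIs, 300 or more genes and a mitochondrial share of 5% or less. The highest Scrublet scores, 0.8% per 1000 nuclei, were removed as doublets. Both libraries were clustered together with scanpy 1.11.5 and leidenalg 0.10.2 on 2000 variable genes, without the members, the pathway genes and Zbp1, using 30 components, 20 neighbours and resolution 1. Classes were named from marker lists. UMIs were summed per class and library and expressed as CPM of the class. Levels have exact Poisson intervals and shares and ratios exact Clopper-Pearson intervals. No test was made between 2 libraries. The interval code was tested on simulated counts. Gene positions are those of GENCODE M21. Scaling by edgeR 4.0.16 TMM factors and by DESeq2 1.42.0 size factors, the filters, doublets, clustering, weights, minimum count and ambient RNA were varied. The ambient profile of a library was the sum of all its deposited nuclei. Its estimated share in PS19 and PZKO was 12.63% and 13.15% in excitatory neurons, 44.13% and 51.61% in microglia, and 44.11% and 62.79% in endothelial cells.

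The members and lists were chosen with earlier results of these data known. Named genes were the 10 members, Zbp1, 4 microglial reference genes, 8 fixed pathway genes, the pathway genes with the lowest and the highest ratio in each class by the interval end nearest 0, and the genes most like each member. The values of 1 pathway gene are not reported here. Ifih1, Ddx58, Tbkbp1, Irf1 in microglia, Stat2 in OPC and the ligands were chosen after their values were seen.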

Additional observations from a re-analysis of the deposited data

How the results depend on the processing

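Depth set the limits, since 10 of the 70 pairs had too few UMIs to be compared and the shares of nuclei depend on the number of UMIs kept. Thinned to 1000 UMIs, the type I pair was found in 6.91% and 3.77% of endothelial nuclei and the type II pair in 2.99% and 2.53% of microglia. Against the class total, TMM factors raised the median of all genes by 0.12 in astrocytes, 0.10 in excitatory neurons, inhibitory neurons, oligodendrocytes and OPC, 0.08 in microglia and 0.05 in endothelial cells. The share of lower genes among all calls went from 81.4% to 54.1% in astrocytes, 78.5% to 55.8% in oligodendrocytes, 74.3% to 53.9% in inhibitory neurons, 68.3% to 44.7% in excitatory neurons, 65.6% to 44.8% in microglia, 60.7% to 39.2% in OPC and 48.6% to 31.2% in endothelial cells. The median of the members in excitatory neurons was then 0.062, and 0.056 with DESeq2 size factors, in place of -0.04. The sign was kept in 49 of 60 pairs with TMM factors and 51 with size factors, and the 3 called pairs kept theirs in all alternatives that gave a value. The number of pairs lower in PZKO was 1 with TMM factors, where Ifngr2 in astrocytes was lost, 6 with the ambient profile subtracted, 4 with stricter filtering, 4 with doublets kept and 5 with a minimum of 20 UMIs, in place of 2, and the number higher was 2 with that minimum, in place of 1. With the ambient profile subtracted, Irf8 in excitatory neurons gave no value, since nothing was left in either library. Elsewhere it lay between 0.56 and 1.02, Ifngr2 in oligodendrocytes between -0.96 and -0.50, and Ifngr2 in astrocytes between -0.74 and -0.48. The number of class-specific members was 4 with stricter filtering and 4 with doublets kept, where Ifnar1 was lost in both, and 5 in the other alternatives run. No paired analysis was possible because each genotype has 1 library and no value comes from a test over samples.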
